A study of Homo sapiens with 9 samples.

Results

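The 4 fibroblast growth factor (FGF) receptors and 6 genes that report or restrain the ERK cascade below them were examined in NCI-H716 cells, a human colorectal cancer line with enteroendocrine features that is known for amplification of the receptor gene FGFR2. The members were FGFR1, FGFR2, FGFR3, FGFR4, SPRY2, SPRY4, DUSP4, DUSP6, ETV4 and ETV5, taken as every probe carrying one of these names. These 10 genes were among 34141 named or unnamed genes on the array, and their 22 probes were among 47230. Signal was measured on 9 Illumina bead arrays in 3 groups of 3: cells given no treatment, cells given a control vector and cells given a YAP mutant vector. All groups are the same line, the labels name no mutation and no promoter in the YAP vector, and copy number was not analysed here.

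An FGF bound to a receptor with heparan sulphate brings the receptor kinases together, and the docking protein FRS2 then recruits GRB2 and SOS, which load RAS and start the RAF, MEK and ERK kinase relay. ERK activity raises transcription of the ETS factors ETV4 and ETV5 and also of its own brakes: the Sprouty proteins SPRY2 and SPRY4, which act upstream on RAS activation, and the phosphatases DUSP4 and DUSP6, which remove phosphate from ERK. YAP is a transcriptional co-activator that is held back by the Hippo kinases and binds DNA through TEAD factors.

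The median raw intensity ran from 104.2 to 128.8 per array, and 38.9% to 41.2% of probes lay above the array's background floor, set from the spread of its dimmest signals. Control vector replicate 3, at 104.2, and YAP mutant replicate 1, at 104.6, were the 2 dimmest arrays. YAP1, read by 1 probe whose place on the transcript is not given in the sources used here, had log2 signals of 8.29, 8.17 and 8.01 in untreated cells, 7.85, 7.79 and 7.94 with the control vector and 8.06, 7.82 and 7.91 with the YAP mutant vector. It differed by 0.07 between the vectors (limma, adjusted p = 0.964), so this probe does not check the label. All 8 enteroendocrine markers were tested, with glucagon (GCG) reaching a log2 signal of 14.48 and NEUROD1 near background, above the floor on 4 arrays. The epithelial markers EPCAM, KRT8 and KRT18 were above the floor on all 9 arrays and KRT19 on 5. The epithelial cadherin CDH1 was above it on 0 arrays. The labels do not say whether replicates were separate cultures, so the p-values speak only for array-to-array spread, part or all of which could be technical. The number of arrays limits the precision of every value, and in bulk RNA fewer expressing cells and less RNA per cell cannot be told apart.

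Of the 10 members, 8 had a probe above the floor on at least 3 arrays and were tested among 15589 genes, each gene at its brightest probe. FGFR3 and SPRY4 were lower in both vector groups than in untreated cells, by 1.38-fold to 1.68-fold. FGFR2, SPRY2, DUSP4, DUSP6, ETV4 and ETV5 did not pass the test in any comparison, and no member passed it between the YAP mutant vector and the control vector. FGFR1 and FGFR4 lay at background. A gene is called here at an adjusted p under 0.05 (limma, Benjamini-Hochberg over all genes tested), and every signal is a normalized log2 intensity, compared between groups within a probe and never between probes.

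**Figure D1:**
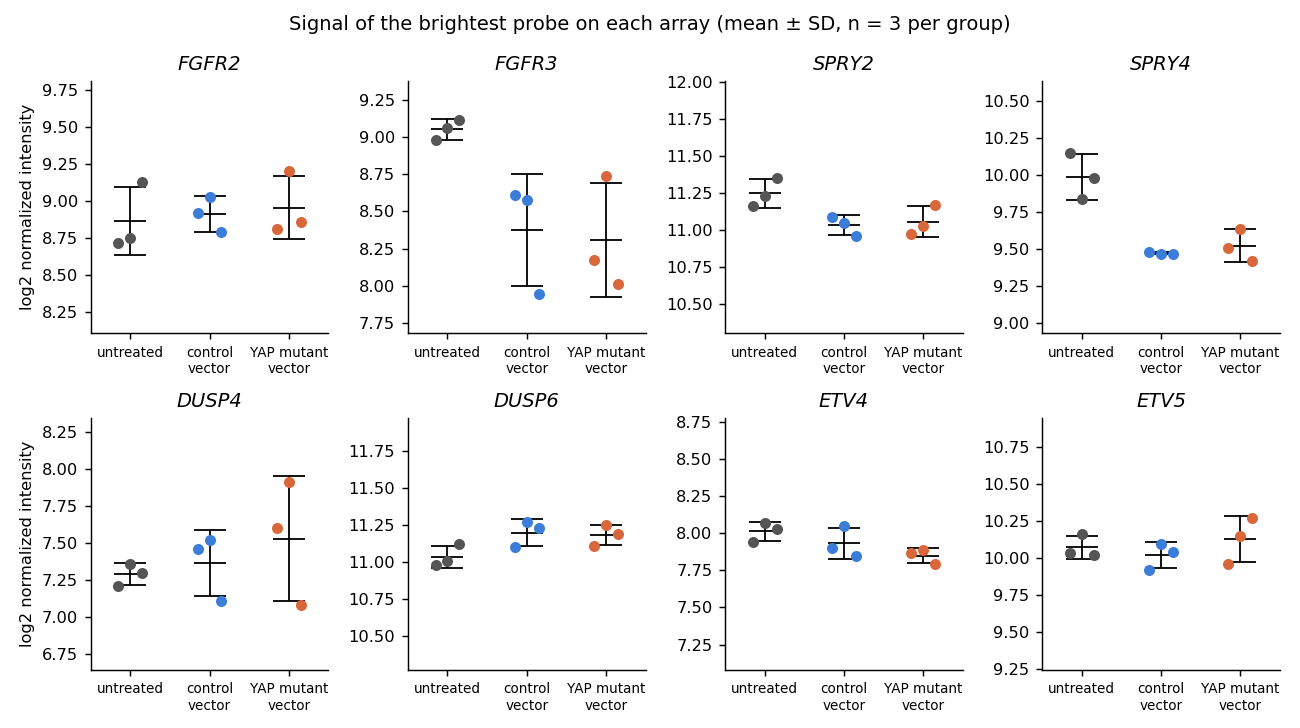
Normalized log2 intensity (vertical axis, the same span in every panel, centred on the values of each gene) of the brightest probe of the 8 tested members on each array, by group. Bars are the mean ± SD of 3 arrays. The FGFR3 and SPRY4 points of both vector groups lie below all 3 untreated points, while the groups of FGFR2, DUSP4 and ETV5 overlap.

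FGFR2, the receptor gene for which this line is known, was well above background on all 9 arrays. Its single probe, ILMN_1682270, gave raw intensities of 3.26 to 5.02 times the floor of the same array. The part of the transcript that this probe or any other member probe reads is not given in the sources used here, so transcript forms it may miss were not measured. The log2 signals of FGFR2 were 8.72, 8.75 and 9.13 in untreated cells, 8.92, 9.03 and 8.79 with the control vector, and 8.81, 9.20 and 8.86 with the YAP mutant vector. The 3 groups overlapped, and the highest array of the untreated group lay above every control vector array.

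The FGFR2 means were 8.86 ± 0.23 (SD, n = 3) in untreated cells, 8.92 ± 0.12 with the control vector and 8.96 ± 0.21 with the YAP mutant vector, and no neighbours in that order differed beyond their spread. The log2 difference of FGFR2 was 0.04 ± 0.124 (SE) between the vectors, with a 95% interval of -0.22 to 0.30 (limma, adjusted p = 0.984). Against untreated cells FGFR2 differed by 0.05 with the control vector (interval -0.20 to 0.31, adjusted p = 0.911) and by 0.09 with the YAP mutant vector (interval -0.17 to 0.35, adjusted p = 0.76). These intervals leave room for differences of either sign, and without untreated replicate 3 the latter 2 differences were 0.19 (adjusted p = 0.619) and 0.22 (adjusted p = 0.413). FGFR2 varied more within groups than most genes, with a pooled SD of 0.193, above that of 88.9% of tested genes.

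FGFR3, the receptor of the group best known from skeletal growth and bladder cancer, was lower with both vectors. Its brightest probe, ILMN_1723123, gave raw intensities of 1.98 to 4.79 times the floor. The log2 signals of FGFR3 were 8.98, 9.06 and 9.12 in untreated cells, 8.61, 8.58 and 7.94 with the control vector, and 8.17, 8.74 and 8.01 with the YAP mutant vector. All 6 vector arrays lay below all 3 untreated arrays, and the vector groups overlapped each other and spread widely, with SDs of 0.38 and 0.39 against 0.07 in untreated cells. FGFR3 fell by 0.68 on the log2 scale with the control vector (SE 0.163, interval -1.01 to -0.34, limma, adjusted p = 0.03), 1.6-fold lower. With the YAP mutant vector it fell by 0.75 against untreated cells (interval -1.09 to -0.41, adjusted p = 0.00684), 1.68-fold lower. Between the vectors the FGFR3 difference was -0.07, with an interval of -0.41 to 0.27 (adjusted p = 0.978).

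The lowest FGFR3 array was the dim control vector replicate 3. Without it the FGFR3 difference between control vector and untreated cells was -0.46 (limma, adjusted p = 0.208). Leaving out untreated replicate 1, 2 or 3 kept the difference between -0.71 and -0.64 with adjusted p values of 0.0805, 0.0879 and 0.102, and without YAP mutant replicate 3 the YAP mutant difference was -0.60 (adjusted p = 0.0598). With array brightness as a covariate the control vector and YAP mutant differences were -0.48 (adjusted p = 0.158) and -0.53 (adjusted p = 0.0685). The second FGFR3 probe, ILMN_1651966, was above the floor on 1 array of each group and differed by -0.08 and -0.15 in the same 2 comparisons, neither called. Averaged over both probes FGFR3 differed by -0.38 with the control vector (adjusted p = 0.1), not called, and by -0.45 with the YAP mutant vector (adjusted p = 0.0257). The pooled within-group SD of FGFR3, 0.314, was higher than that of 99.7% of tested genes, whose median SD was 0.13.

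FGFR1 and FGFR4, the other receptors of the family, gave no level that could be compared. All 3 FGFR1 probes were below the floor on all 9 arrays, at 0.664 to 0.884 times it. Of the 3 FGFR4 probes 1 was above the floor on 1 array, control vector replicate 1, and the FGFR4 log2 signals ran from 5.71 to 6.57. Neither gene was tested.

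**Figure D2:**
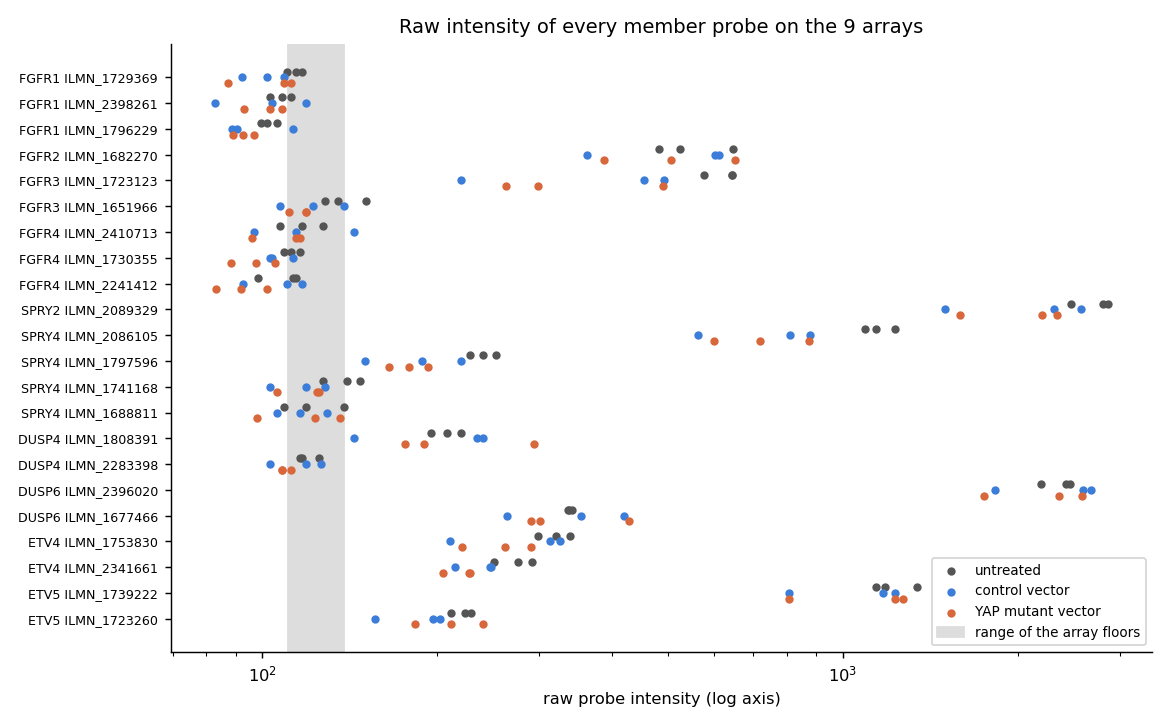
Raw intensity (horizontal log axis, no background correction) of all 22 member probes on the 9 arrays, coloured by group, with the range of the array floors (110.8 to 138) shaded. The probes of FGFR1 and FGFR4 sit in or below the shaded range apart from 1 FGFR4 point, and those of FGFR2, SPRY2, DUSP6 and ETV5 lie to its right.

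SPRY4, a Sprouty inhibitor of receptor signalling to RAS, was the second member lower with both vectors. The log2 signals of SPRY4 at probe ILMN_2086105 were 10.15, 9.84 and 9.98 in untreated cells, 9.48, 9.47 and 9.47 with the control vector, and 9.51, 9.64 and 9.42 with the YAP mutant vector. Both vector groups lay below every untreated array, and the 3 control vector arrays, with an SD of 0.01, fell within the range of the YAP mutant arrays. SPRY4 fell by 0.51 on the log2 scale with the control vector (SE 0.105, interval -0.73 to -0.30, limma, adjusted p = 0.0084), 1.43-fold lower. With the YAP mutant vector SPRY4 fell by 0.47 against untreated cells (interval -0.68 to -0.25, adjusted p = 0.00836), 1.38-fold lower. The difference between the vectors was 0.05 (interval -0.17 to 0.26, adjusted p = 0.978).

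Untreated replicate 1 was the highest SPRY4 array. Without it the control vector difference was -0.43 (limma, adjusted p = 0.0612) and the YAP mutant difference -0.39 (adjusted p = 0.0521), and without YAP mutant replicate 3 the latter was -0.41 (adjusted p = 0.0525). A second SPRY4 probe above the floor on all 9 arrays, ILMN_1797596, read 7.66, 7.42 and 7.55 in untreated cells, 7.04, 7.42 and 7.20 with the control vector and 7.33, 7.18 and 7.12 with the YAP mutant vector. Its differences from untreated cells, -0.32 and -0.33, had the same sign, with adjusted p values over all probes of 0.177 and 0.101. The remaining SPRY4 probes were near background: ILMN_1741168 was above the floor on 2 untreated, 1 control vector and 0 YAP mutant arrays, and ILMN_1688811 on 2 arrays in all. Averaged over the kept probes of the gene, SPRY4 differed by -0.34 (adjusted p = 0.0718) and -0.31 (adjusted p = 0.0643), neither called.

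SPRY2, the other Sprouty member, was bright and varied little. Its log2 signals were 11.16, 11.23 and 11.35 in untreated cells, 11.09, 11.05 and 10.96 with the control vector, and 10.97, 11.03 and 11.17 with the YAP mutant vector. Every control vector array lay below every untreated array, while the top YAP mutant array lay just above the lowest untreated one. SPRY2 differed by -0.21 ± 0.101 with the control vector (interval -0.42 to -0.01, limma, adjusted p = 0.347) and by -0.19 with the YAP mutant vector (interval -0.40 to 0.02, adjusted p = 0.331), and by 0.03 between the vectors. None of these was called.

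The promoters of the called members are shown because these 2 genes were lower together. RefSeq (GRCh38.p14) gave 13 promoters for 6 of the 10 members, each from 250 bases before to 50 bases after the start site. A set of 3 short motifs was searched on both strands: the ETS core CCGGAA, to which factors such as ETV4 and ETV5 bind, the TEAD core GGAATG and the AP-1 site TGANTCA, with capitals below marking a match. SPRY4 lies at chr5:142324198-142324497 on the minus strand, and FGFR3 at chr4:1793043-1793342 on the plus strand.
SPRY4: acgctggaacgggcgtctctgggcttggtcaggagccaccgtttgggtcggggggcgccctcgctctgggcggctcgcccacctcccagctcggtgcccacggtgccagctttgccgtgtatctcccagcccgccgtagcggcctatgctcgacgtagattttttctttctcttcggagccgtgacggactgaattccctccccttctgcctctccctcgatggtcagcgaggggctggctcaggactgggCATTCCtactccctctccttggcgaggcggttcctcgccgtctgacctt
FGFR3: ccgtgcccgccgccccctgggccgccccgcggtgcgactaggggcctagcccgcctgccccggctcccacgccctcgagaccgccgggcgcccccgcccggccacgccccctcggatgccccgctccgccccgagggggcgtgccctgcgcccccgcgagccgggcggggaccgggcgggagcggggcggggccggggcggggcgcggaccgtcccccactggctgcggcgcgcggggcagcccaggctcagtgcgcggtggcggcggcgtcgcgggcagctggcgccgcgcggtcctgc
The SPRY4 window held 1 TEAD core match, on the opposite strand, and no ETS core or AP-1 match. The FGFR3 window, with a GC content of 86.3%, held none of the 3 motifs. Among members that were not called or not tested, the TEAD core was also in 2 FGFR2 windows and 1 FGFR4 window, and the ETS core in 1 SPRY2 window. Over all 35116 promoters of this length, 17.2% held the ETS core, 14.0% the TEAD core and 7.71% the AP-1 site, so matches are not rare, and a missing match says only that these letters are not in this window.

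DUSP6, the cytoplasmic ERK phosphatase whose transcript is widely read as a gauge of ERK output, was bright on every array. The log2 signals of DUSP6 were 10.98, 11.01 and 11.12 in untreated cells, 11.10, 11.27 and 11.23 with the control vector, and 11.11, 11.25 and 11.19 with the YAP mutant vector. The groups overlapped, and the differences against untreated cells were 0.16 ± 0.0996 (interval -0.04 to 0.37, limma, adjusted p = 0.501) and 0.14 (interval -0.06 to 0.35, adjusted p = 0.481). Between the vectors DUSP6 differed by -0.02 (interval -0.23 to 0.19, adjusted p = 0.991). The dimmer DUSP6 probe, ILMN_1677466, gave 0.15 and 0.18 against untreated cells, neither called. With arrays scaled to a common median the 2 differences of DUSP6 from untreated cells were 0.05 and -0.02. In that setting the medians over all genes were themselves -0.0547 and -0.0786 in the same 2 comparisons.

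DUSP4, a nuclear phosphatase of ERK and related kinases, varied widely within the vector groups. Its log2 signals were 7.21, 7.36 and 7.30 in untreated cells, 7.46, 7.52 and 7.11 with the control vector, and 7.60, 7.91 and 7.08 with the YAP mutant vector. Replicate 3 was the lowest array of each vector group and lay below all untreated arrays, while the other vector arrays lay above them. The DUSP4 difference was 0.24 ± 0.15 between the YAP mutant vector and untreated cells (interval -0.07 to 0.55, limma, adjusted p = 0.42), 0.17 between the vectors (interval -0.14 to 0.48, adjusted p = 0.928) and 0.07 between control vector and untreated cells (adjusted p = 0.893). Single arrays set these values: without YAP mutant replicate 3 the first 2 were 0.46 (adjusted p = 0.0563) and 0.39 (adjusted p = 0.43), and without YAP mutant replicate 2 they were 0.05 (adjusted p = 0.896) and -0.02 (adjusted p = 0.998). Its pooled SD of 0.276 exceeded that of 99.2% of tested genes. A second probe, ILMN_2283398, was above the floor on 0 arrays.

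ETV4 and ETV5, the PEA3-family ETS factors transcribed downstream of FGF and ERK, did not pass the test either. The log2 signals of ETV4 were 7.94, 8.07 and 8.03 in untreated cells, 7.90, 8.05 and 7.85 with the control vector, and 7.87, 7.89 and 7.79 with the YAP mutant vector. All 3 YAP mutant arrays lay below the untreated ones, by a mean difference of -0.17 ± 0.0992 (interval -0.37 to 0.04, limma, adjusted p = 0.393). The second ETV4 probe differed by -0.16 in that comparison, with overlapping groups. ETV4 differed by -0.09 between the vectors (adjusted p = 0.944) and by -0.08 between control vector and untreated cells (adjusted p = 0.793).

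The log2 signals of ETV5 were 10.03, 10.16 and 10.02 in untreated cells, 9.92, 10.09 and 10.04 with the control vector, and 9.96, 10.15 and 10.27 with the YAP mutant vector. The groups overlapped, with differences of 0.11 ± 0.105 between the vectors (interval -0.11 to 0.33, limma, adjusted p = 0.932), -0.05 for the control vector and 0.06 for the YAP mutant vector, each against untreated cells. The dimmer ETV5 probe, ILMN_1723260, separated the vector groups: 7.17, 7.24 and 7.28 with the control vector against 7.52, 7.35 and 7.64 with the YAP mutant vector. Its difference of 0.27 had an adjusted p of 0.624 over all probes (limma), so it was not called.

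**Figure D3:**
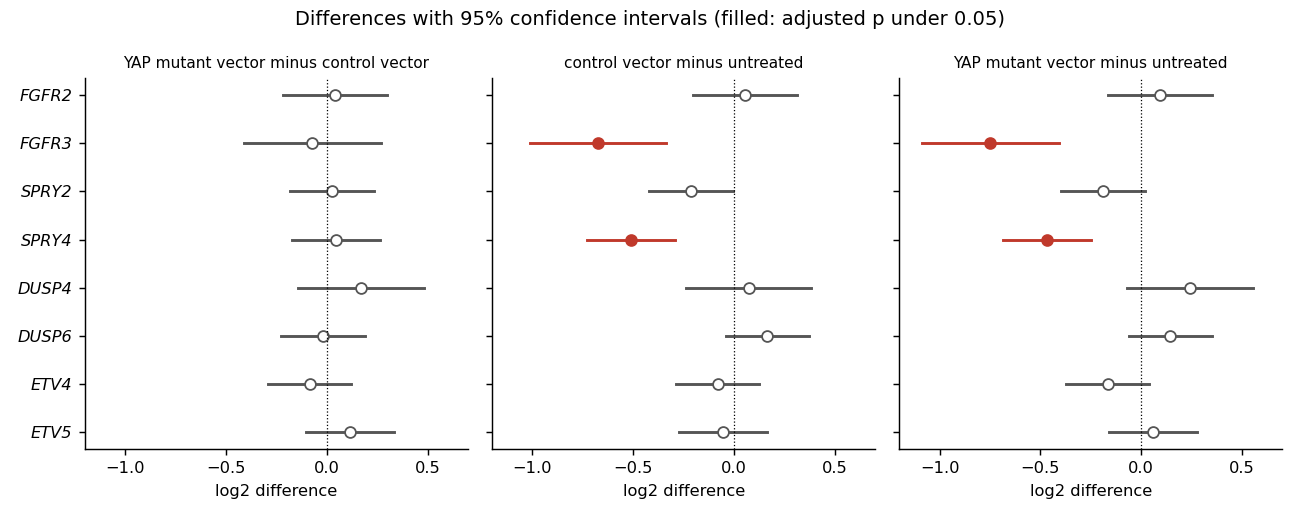
Log2 difference (horizontal axis) of each tested member in the 3 comparisons, with 95% confidence intervals; filled red points have an adjusted p under 0.05. FGFR3 and SPRY4 are the filled points in both comparisons with untreated cells, and between the vectors all 8 intervals include 0.

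Between the YAP mutant vector and the control vector, the comparison that asks what the YAP mutant adds to carrying a vector, 0 of the 8 members were called and 0 had an unadjusted p under 0.05. Over all genes 53 were called there (0.34%), 50 higher (0.321%) and 3 lower (0.0192%), and 6.49% had an unadjusted p under 0.05. The groups of 0 members lay apart there, beside 11.5% of all genes. The ordinary test without moderation and the replicate block called 0 members, where they called 2 and 64 of all 15589 genes. With so few calls over all genes, 0 among the 8 members adds little. The median member difference was 0.03, beside -6e-04 over all genes, with 5 members above 0.

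Between control vector and untreated cells 2 of 8 members were called, both lower. The groups of 3 members did not overlap, and the same held for 18.7% of all genes. Over all genes 340 were called (2.18%), 237 higher (1.52%) and 103 lower (0.661%). Median differences were -0.07 for the members and -0.0029 for all genes. With arrays scaled to a common median instead, 59.6% of all calls were higher, against 69.7% here, and 0 members were called.

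Between the YAP mutant vector and untreated cells 2 of 8 members were called, both lower, where 806 of all genes were called (5.17%), 524 higher (3.36%) and 282 lower (1.81%). Groups lay apart for 3 members and for 23.3% of all genes. Medians were -0.05 for the members and -0.0059 for all genes. Fitted probe by probe over 20218 probes, the brightest FGFR3 and SPRY4 probes were called in both comparisons with untreated cells, against backgrounds of 1.72% and 4.46% of probes, and no member probe was called between the vectors, where 0.297% of probes were. The 2 comparisons with untreated cells share those 3 arrays, so their values are not independent of each other.

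Other genes of the pathway were counted from lists of ligands, co-receptors, kinases, inhibitors and targets. Over all genes the share called was 5.17% between the YAP mutant vector and untreated cells. It was 2.18% for the control vector against untreated cells and 0.34% between the vectors. No list was tested as a set. Of 22 FGF ligands 6 were tested. FGF9, a ligand that prefers FGFR3 and the IIIc receptor forms, was bright, with log2 signals of 11.19, 11.36 and 11.51 in untreated cells, 11.18, 11.19 and 11.02 with the control vector and 10.88, 10.88 and 10.85 with the YAP mutant vector. FGF9 fell by 0.48 on the log2 scale between the YAP mutant vector and untreated cells (limma, adjusted p = 0.00645), and its -0.26 between the vectors was not called (adjusted p = 0.634). FGF12, an intracellular FGF homologue that acts on sodium channels, rose by 0.45 against untreated cells (adjusted p = 0.0234). The list's median there was 0.11, and FGF18, FGF13 and FGF20 at 0.15, 0.07 and 0.15 were not called.

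Among 15 tested co-receptors and adaptors of 21, SDC1, a heparan sulphate proteoglycan, rose by 0.53 with the YAP mutant vector against untreated cells (limma, adjusted p = 0.00684), and 0 fell. GRB2, the adaptor that recruits SOS, differed by -0.37 (adjusted p = 0.0858), the co-receptor KLB by -0.27 (adjusted p = 0.163) and the glypican GPC1 by -0.30 (adjusted p = 0.182). In the RAS, RAF, MEK and ERK list 1 of 11 tested genes was called in the same comparison, beside 5.17% of all genes. This was HRAS, which fell by 0.37 (adjusted p = 0.0457). RPS6KA1 at -0.30 and MAP2K1 at -0.25 were not called. No gene of either list was called in the other comparisons.

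Of 13 tested further feedback inhibitors, CBLB, a ubiquitin ligase that marks receptors for degradation, rose by 0.39 with the YAP mutant vector against untreated cells (limma, adjusted p = 0.0377). ERRFI1, an inhibitor of EGF receptor kinases, fell by 0.49 (adjusted p = 0.0126), and its control vector difference was -0.42 (adjusted p = 0.0622). SPRY1 at -0.31 (adjusted p = 0.0651) and IL17RD, a membrane inhibitor of FGF signalling, at -0.36 (adjusted p = 0.0661) had the sign of SPRY4 without being called, and LRIG1 differed by 0.29 (adjusted p = 0.11). The list's median in this comparison was 0.01.

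Among 23 tested further ERK targets and ETS factors FOS, an immediate early gene, was the single gene called between the vectors. FOS read 7.08, 6.92 and 6.77 in untreated cells, 7.94, 8.34 and 7.82 with the control vector and 7.15, 7.39 and 7.18 with the YAP mutant vector. The control vector arrays stood above both other groups: FOS rose by 1.11 from untreated to control vector (limma, adjusted p = 2.57e-05) and fell by 0.79 from control vector to YAP mutant vector (adjusted p = 0.00243). EGR1, another immediate early gene, had differences in the same 2 comparisons of 0.45 (adjusted p = 0.0607) and -0.42 (adjusted p = 0.279). IER3 had the opposite signs, -0.36 (adjusted p = 0.083) and 0.25 (adjusted p = 0.684), and ETS1 differed by 0.37 between the vectors (adjusted p = 0.281). EPHA2, an ephrin receptor, rose by 0.50 with the YAP mutant vector against untreated cells (limma, adjusted p = 0.0232). Its log2 signals were near background, at 6.28 to 7.31, and above the floor on 2 untreated and 3 YAP mutant arrays.

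**Figure D4:**
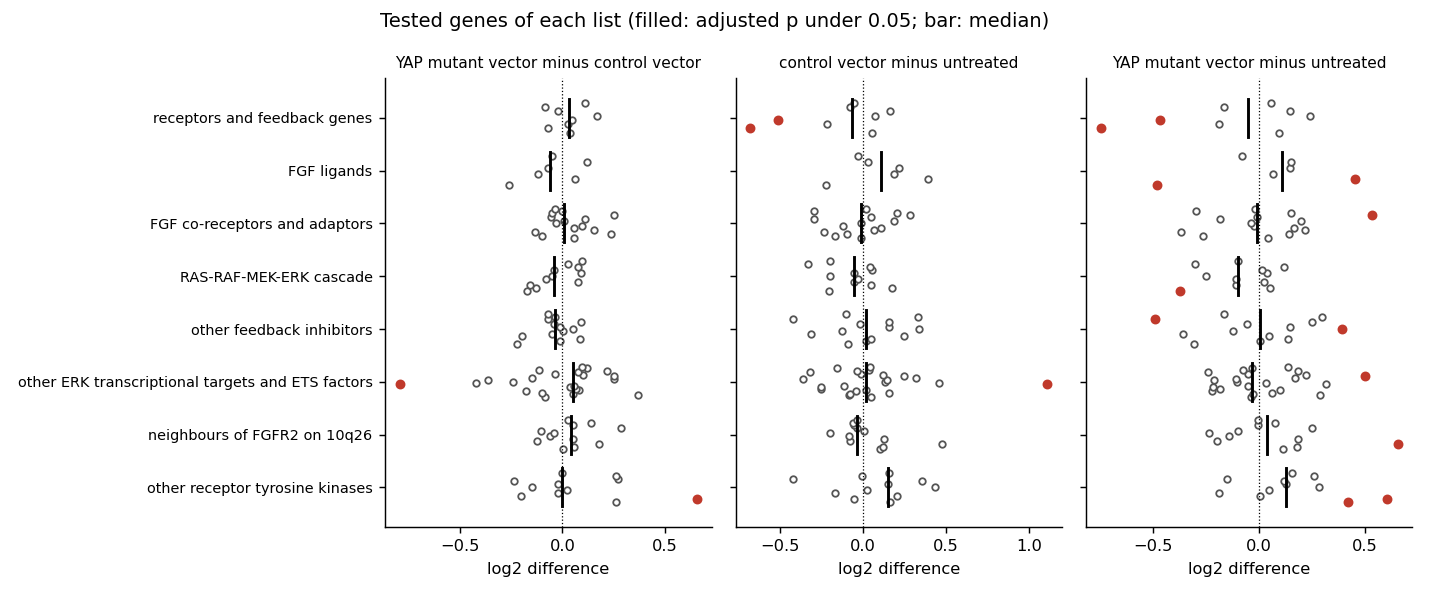
Log2 difference (horizontal axis) of every tested gene of the members and of 7 pathway lists in the 3 comparisons; filled red points have an adjusted p under 0.05 and black bars are list medians. FOS is the filled point at -0.79 between the vectors and at 1.11 between control vector and untreated cells, and most genes of every list are unfilled.

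Genes that neighbour FGFR2 on 10q26 were listed because an amplified segment can carry them. Of 17 listed, 16 were found by name and 12 were tested. RGS10, a regulator of G protein signalling, rose by 0.65 with the YAP mutant vector against untreated cells (limma, adjusted p = 0.00349). ATE1 at 0.25, TIAL1 at -0.20 and MCMBP at -0.24 were not called, and the list's median was 0.04, beside an FGFR2 difference of 0.09. Of 11 tested other receptor tyrosine kinases ERBB2 was the single one called between the vectors, with log2 signals of 6.99, 6.79 and 7.07 in untreated cells, 7.04, 6.78 and 6.87 with the control vector and 7.55, 7.62 and 7.49 with the YAP mutant vector. ERBB2 rose by 0.66 between the vectors (adjusted p = 0.00306), its YAP mutant arrays above all others, and EGFR rose by 0.42 against untreated cells (adjusted p = 0.0272). DDR1 differed by 0.26 between the vectors (adjusted p = 0.62). PDGFRA lay near background, with log2 signals of 6.28 to 7.02. It was above the floor on 0 of 3 untreated arrays and on 3 of 3 in each vector group, so it was kept through the vector groups alone. Against untreated cells PDGFRA differed by 0.43 with the control vector (limma, adjusted p = 0.0552) and by 0.28 with the YAP mutant vector (adjusted p = 0.183), neither called.

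The 3 genes whose centred profiles over the 9 arrays lay nearest to FGFR2 were SSRP1, RAB2A and KCNK3, at root mean square distances of 0.0621, 0.0653 and 0.0693. The FGFR2 group means ranged over 0.09, less than its pooled within-group SD of 0.193. Nearness to FGFR2 is therefore mostly likeness in array-to-array variation and is not read as shared regulation. Nearest to FGFR3, the member with the widest range of group means (0.75), were ID2, TFAP2A and AMBN, at 0.09, 0.127 and 0.154. The group means of ID2, an inhibitor of basic helix-loop-helix factors, were 12.54, 11.78 and 11.71 in the order untreated, control vector and YAP mutant vector. These genes were picked for likeness to FGFR3 on the same 9 arrays, so their lower vector means follow from the choice and are not read as shared regulation.

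Cell type markers were set beside these values. Of the enteroendocrine markers SCG2, a secretory granule protein, fell by 0.43 with the control vector (limma, adjusted p = 0.0249) and by 0.87 with the YAP mutant vector (adjusted p = 5.95e-06) against untreated cells. In the latter comparison PCSK1, a prohormone convertase, fell by 0.57 (adjusted p = 0.00249) and SCG3 rose by 0.43 (adjusted p = 0.0351), and the medians of the 8 markers were 0.08 with the control vector and 0.01 with the YAP mutant vector. CHGB, CHGA and NEUROD1 were not called. The keratin KRT8 rose by 0.50 with the YAP mutant vector against untreated cells (limma, adjusted p = 0.046), and KRT19, EPCAM and KRT18 were not called. The KRT8 groups overlapped, with log2 signals of 9.25, 9.17 and 8.96 in untreated cells and 9.62, 10.01 and 9.23 with the YAP mutant vector.

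Among fibroblast markers LUM rose by 0.51 in that comparison (limma, adjusted p = 0.0159), COL3A1, COL1A2 and COL1A1 were not called, and DCN and THY1 were above the floor on 0 arrays. Of 6 blood cell markers CD14 rose by 0.43 with the control vector (adjusted p = 0.0381), LYZ and CD68 were not called, and the defining PTPRC and CD3E were above the floor on 0 arrays. Of 4 endothelial markers only ESAM was tested, with no call, PECAM1 was above the floor on 2 arrays, and VWF and CDH5 on 0. The part of these marker differences in the FGFR3 and SPRY4 results was not tested.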

How the data were processed

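Total RNA of 9 NCI-H716 samples was amplified to biotin-labelled cRNA and read on Illumina bead arrays, per the labels' protocols. The first deposited table holds raw probe intensity values, exported with BeadStudio per the submitters' processing notes (the sources used here do not give its version), with no detection p. The second holds log2 values quantile normalized by the authors without background correction, and quantile normalizing the log2 intensities here came within 0.005 of them. All sample columns were used.

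Raw intensities were background corrected with normexp (offset 50) and quantile normalized. In place of detection p, a probe was kept when at least 3 arrays exceeded that array's floor, the mode plus 1.645 SDs of the lower side of its log2 intensities. This left 20218 probes and 15589 genes, each at its brightest probe. Gene names are those of the table: 4626 were updated and 27036 were current in RefSeq's gene table, 12244 were kept as given, and 3270 unnamed and 54 date-like names stayed probe IDs. One mean per group was fitted over all 9 arrays in limma 3.58.1 (R 4.3.3, 6 residual degrees of freedom), with Benjamini-Hochberg adjustment. The code was tested on simulated data.

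The members and lists were chosen with earlier results of these data known. The text names all members, every list gene called in any comparison, up to 3 more per list with the smallest adjusted p, and the 3 profiles nearest to FGFR2 and to the member with the widest range of group means. Some list genes enter the counts without being reported here. The alternatives changed background correction, normalization, filter, probe rule, variance model, arrays used and block.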

Additional observations from a re-analysis of the deposited data

How the results depend on the processing

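Of 25 alternatives, all gave 0 members called between the vectors. The count of 2 members between control vector and untreated cells fell to 0 with an offset of 16, with arrays scaled to a common median, with the mean over probes and with the ordinary test. It fell to 1 (SPRY4) with array brightness as a covariate and without both dim arrays, a choice made after seeing the data; leaving out 1 array gave 0 to 2, with 0 without untreated replicate 1. The count of 2 between YAP mutant vector and untreated cells fell to 1 with an offset of 16 (SPRY4), the mean over probes (FGFR3) and brightness (SPRY4), and to 0 with the ordinary test; leaving out 1 array gave 0 to 2, with 0 without YAP mutant replicate 3. No direction of a called value reversed: FGFR3 ran from -0.79 to -0.38 with the control vector and from -0.97 to -0.45 with the YAP mutant vector, and SPRY4 from -0.60 to -0.34 and from -0.62 to -0.31. Their adjusted p ran from 0.00676 to 0.367, from 4.48e-04 to 0.232, from 0.00317 to 0.125 and from 0.00327 to 0.0803 in the same order. Uncalled differences of FGFR2, FGFR3, SPRY2, SPRY4, DUSP4, DUSP6 and ETV5 changed sign in some alternatives, DUSP4 between the vectors from -0.02 to 0.39.

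Over all genes, the 53 calls between the vectors became 22 with the offset of 16, 10 with the common median, 2 with the ordinary test, 27 without both dim arrays and 23 to 54 leaving out 1 array (fewest without YAP mutant replicate 2, and 27, 35 and 31 without control vector replicates 2 and 3 and YAP mutant replicate 1). The 340 calls for the control vector became 135, 47, 11, 159 and 157 to 371 (fewest without control vector replicate 3, and 182, 184 and 198 without untreated replicates 1, 2 and 3), and 188 with brightness. The 806 calls between YAP mutant vector and untreated cells became 512, 182 and 230 under the first 3, 516 with brightness and 475 to 874 leaving out 1 array (fewest without YAP mutant replicate 3, and 499 without untreated replicate 2). The cause of these shifts was not tested. With the replicate block the counts were 64, 383 and 868, and 0, 2 and 2 members; the numbers were not taken to pair the arrays, since correlations of same-numbered deviations ran from -0.198 to 0.164. FGFR1, FGFR4, the second FGFR3 probe and 2 SPRY4 probes lay too near background to show a difference.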
